A study of Mus musculus with 36 samples.

Results

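The unmyelinated optic nerve (UON) was compared between 6 weeks (6W) and 3 days (3D) after microbead injection, directly and with no naïve library in the contrast. The libraries were chosen by their labels as the UON glaucoma 6W pools and the UON glaucoma 3D pools, which makes 4 of the 36 libraries of the series. The whole series holds RNA-seq of the UON, the myelinated optic nerve (MON) and the retina of C57BL/6 mice aged 2 to 4 months, taken from naïve eyes, after optic nerve crush, or after microbead injection (glaucoma). Each library pools tissue of 2 mice of 1 sex, and each tissue and time has 1 female and 1 male pool. In the glaucoma groups microbeads were injected into the anterior chamber of 1 eye to raise intraocular pressure. Neither group carries a transgene, a deletion or a second treatment, and both had the same injection. The UON is the short segment dissected just in front of the zone where myelin begins. The naïve and 2 week (2W) UON pools were not part of this contrast. They entered the count filter, the scaling, the sex term and the estimate of spread between pools, and the text gives their values as a reference. A pool stands for its sex and for its own mice at once, so an effect of sex and a difference between pools cannot be told apart.

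The 3D pools held 19513875 (female) and 51450908 (male) deposited counts, and the 6W pools 52993867 and 48316454. Of 55487 genes in the table, 22438 had enough counts to be tested. The deposited counts are estimates that may hold several counts to each read pair, so their size may overstate the depth. Astrocyte markers fitted the label of the tissue, with Gfap, the intermediate filament of astrocytes, at 12660 and 11310 CPM (counts scaled to the library total) in the female and male 3D pools and at 13370 and 16370 CPM at 6W. Mbp, the main myelin protein gene, was not near 0, at 25790 and 12800 CPM at 3D and 9645 and 25260 CPM at 6W, so that RNA of myelinating cells was present in each of these 4 pools. Among the 4 pools, the female 3D and male 6W pools were rich in oligodendrocyte RNA, and the male 6W pool was poor in fibroblast RNA, with values given further on. Each pair of values below gives the female pool first. With bulk RNA, fewer cells of a type and less RNA per cell cannot be told apart.

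The unmyelinated segment of the mouse optic nerve head is built mainly of astrocytes that ensheath bundles of ganglion cell axons, together with microglia, vessels and, at its rim, fibroblasts of the sclera and meninges. Glia of the nerve can re-enter the cell cycle after injury. Cells that divide transcribe the genes of DNA replication in S phase and then the genes of mitosis (cyclins, spindle motors, kinetochore proteins) in G2 and M phase. Many mitotic promoters carry a CHR element together with CCAAT boxes. It is through the CHR that the DREAM and MuvB complexes repress them in resting cells.

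Between 3D and 6W the genes of mitosis were the group that stood lowest at 6W. All 42 genes of the mitosis list were tested, 41 had a negative log2 fold change of 6W against 3D, and the median was -3.62, against -0.07 over all genes tested. Timp1 and Serpina3n, genes of reactive astrocytes, and the microglial receptor gene Fcrls were also lower at 6W. Tesc, Cap2, Acsbg1 and the astrocyte-associated peptide gene Cartpt were higher. No gene was called by edgeR's quasi-likelihood test at a Benjamini-Hochberg adjusted p under 0.05 and a change over 1 on the log2 scale, which is 0% of 22438, and the smallest adjusted p was 0.186. At an unadjusted p under 0.05, 645 genes were lower at 6W (2.87%) and 373 were higher (1.66%). DESeq2, run on the same libraries as the alternative, called 109 of 22000 genes lower (0.495%) and 18 higher (0.0818%). Without the filter on low counts, edgeR called 24 genes lower and 2 higher. With 2 pools against 2 an exact permutation test of a single gene (two-sided) cannot give a p below 0.333, so calls rest on the spread shared across genes and libraries. "Lower" and "higher" below describe values, and each call is credited to DESeq2.

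Both pools of one time stood below both pools of the other in a large share of all genes. They lay lower at 6W in 19.4% of the genes tested and higher at 6W in 16%. In the mitosis list the 6W pools lay below both 3D pools for 39 of 42 genes. At an unadjusted edgeR p under 0.05, 35 of the 42 were lower at 6W and none was higher, and DESeq2 called 25 lower. Leaving out each of the 4 pools in turn moved the median of the list between -4.15 and -2.67. DESeq2 then called 15 of the list lower without the male 3D pool, 24 without the female 3D pool, and 20 without the female 6W or without the male 6W pool.

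The promoters of the mitosis genes are shown because most of the list was lower at 6W and because many of its members share letters near their start. Windows of 300 bases, from 250 before to 50 after the transcription start, were taken from RefSeq (GRCm38.p6) and matched 37 of the 42 genes by symbol. The letters TTTGAA (the CHR) and CCAAT (the CCAAT box) were searched on both strands, and where matches of both overlapped each was counted. TTTGAA occurred in 26 of the 37 genes (70.3%), against 20.2% of all 27025 genes with a window. CCAAT occurred in 28 of 37 (75.7%) against 41.1%, and both motifs in 23 of 37 (62.2%) against 8.97%. When only the 250 upstream bases were read, TTTGAA was found in 13 of 37 (35.1%) against 18.3%. In the other 13, Cenpa and Aurka among them, it lies after the annotated start. The windows of the DNA replication list gave TTTGAA in 3 of 26 genes (11.5%), CCAAT in 15 of 26 (57.7%) and both in 2 of 26 (7.69%). A match is a run of letters and not evidence of binding. The 120 bases that end just before the start are printed 5′ to 3′ on the gene's strand (minus for all 4) for the mitosis genes among the 15 lower genes of smallest p that hold TTTGAA in these bases, and capitals mark either motif or its reverse complement (TTCAAA for the CHR, ATTGG for the CCAAT box). They lie at chr4:118437344-118437463 (Cdc20), chr10:69352913-69353032 (Cdk1), chr11:99024190-99024309 (Top2a) and chr4:117178773-117178892 (Kif2c). The stretch of Kif2c lies before its RefSeq start but inside the span of the gene in the deposited coordinates (chr4:117159639-117182639). The 2 annotations thus place its start differently.
Cdc20: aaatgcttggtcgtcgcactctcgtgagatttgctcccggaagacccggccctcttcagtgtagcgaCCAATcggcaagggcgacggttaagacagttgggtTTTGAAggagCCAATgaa
Cdk1: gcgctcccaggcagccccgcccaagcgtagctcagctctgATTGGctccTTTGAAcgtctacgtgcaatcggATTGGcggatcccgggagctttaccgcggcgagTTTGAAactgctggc
Top2a: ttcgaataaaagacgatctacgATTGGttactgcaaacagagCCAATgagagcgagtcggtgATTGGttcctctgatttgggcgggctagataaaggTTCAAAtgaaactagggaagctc
Kif2c: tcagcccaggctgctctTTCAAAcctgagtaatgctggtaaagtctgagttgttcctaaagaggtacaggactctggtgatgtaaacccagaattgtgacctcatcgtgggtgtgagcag
Cdc20, Cdk1 and Top2a hold both motifs in this stretch, and Kif2c holds TTTGAA only. Of the genes described further on, Mki67, Espl1 and Ube2c also hold TTTGAA there and are not printed.

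The cyclins and their kinase were low in every pool except those of 3D. Ccnb1, the mitotic cyclin B1 (chr13:100778650-100786570 in GRCm38), was at 33.3 and 43.2 CPM at 3D and at 1.6 and 0.717 CPM at 6W. Its log2 fold change of 6W against 3D was -5.23 ± 0.85 (SE), with an adjusted p of 1.89e-10 by DESeq2. Cdk1, the kinase that drives entry into mitosis (chr10:69335146-69352938), was at 25.6 and 20.4 CPM at 3D and 2.27 and 0.717 CPM at 6W, a change of -4.08 ± 0.56. Ccna2, the cyclin of S and G2 phase, went from 26.5 and 19.4 CPM to 2.44 and 1.43 CPM. Cks2, a small subunit of the Cdk1 complex, went from 12.9 and 8.92 CPM to 0.750 and 0.560 CPM. For all 4 genes both 3D pools stood above both 6W pools, an order that the rule for picking them required. The naïve pools, at 0.519 to 4.80 CPM, were of the order of 6W.

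Genes of the spindle and the chromosomes followed the same order of pools, which the rule for picking them again required. Top2a, the topoisomerase that untangles sister chromosomes (chr11:98992943-99024189), was at 56.5 ± 5.73 CPM at 3D and 2.85 ± 1.65 CPM at 6W (mean ± SD, n = 2). The change was -4.51 ± 0.49, with an adjusted p of 6.92e-18 by DESeq2 and 0.186 by edgeR. Cenpa, the histone variant that marks centromeres (chr5:30666777-30674830), was at 24.2 ± 0.523 CPM at 3D and 0.988 ± 0.288 CPM at 6W (mean ± SD, n = 2), a change of -4.65 ± 0.50. In these genes the pools of one time differed by little compared with the gap between times. Cenpe, a kinesin that carries chromosomes to the spindle equator, went from 20.4 and 13.8 CPM to 1.62 and 0.179 CPM. Kif2c, a kinesin that takes microtubules apart at kinetochores, went from 7.72 and 9.53 CPM to 0.615 and 0.358 CPM. On the FPKM scale, which accounts for transcript length, the 3D levels were 18.5 and 17.6 for Cenpa and 14.7 and 14.0 for Top2a.

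Kinases and the machinery of mitotic exit were low at 6W as well. Aurka, the centrosomal Aurora kinase, was at 9.95 and 11.4 CPM at 3D and 0.961 and 0.269 CPM at 6W. Cdc20, the activator of the anaphase-promoting complex, was at 32.6 and 44.0 CPM at 3D and 5.25 and 3.18 CPM at 6W, with a change of -3.25 ± 0.44 and a DESeq2 adjusted p of 1.07e-09. Nek2, a kinase that separates centrosomes, was at 10.8 and 22.4 CPM at 3D and 1.17 and 0.739 CPM at 6W, and Cdca3, a trigger of mitotic entry, at 13.8 and 17.3 CPM and 2.27 and 1.68 CPM. Lockd, a noncoding RNA downstream of the cell cycle inhibitor gene Cdkn1b (chr6:134929092-134956798), had the smallest p of all named genes. It was at 21.1 and 25.7 CPM at 3D and 0.846 and 0.672 CPM at 6W, a change of -4.91 ± 0.50. Mki67, the proliferation antigen Ki-67, was at 30.3 and 28.7 CPM at 3D and 3.38 and 2.55 CPM at 6W. The pools of the 2 times did not overlap for any of these genes. For all of them except Mki67 this was a condition of the rule that picked them.

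**Figure D1:**
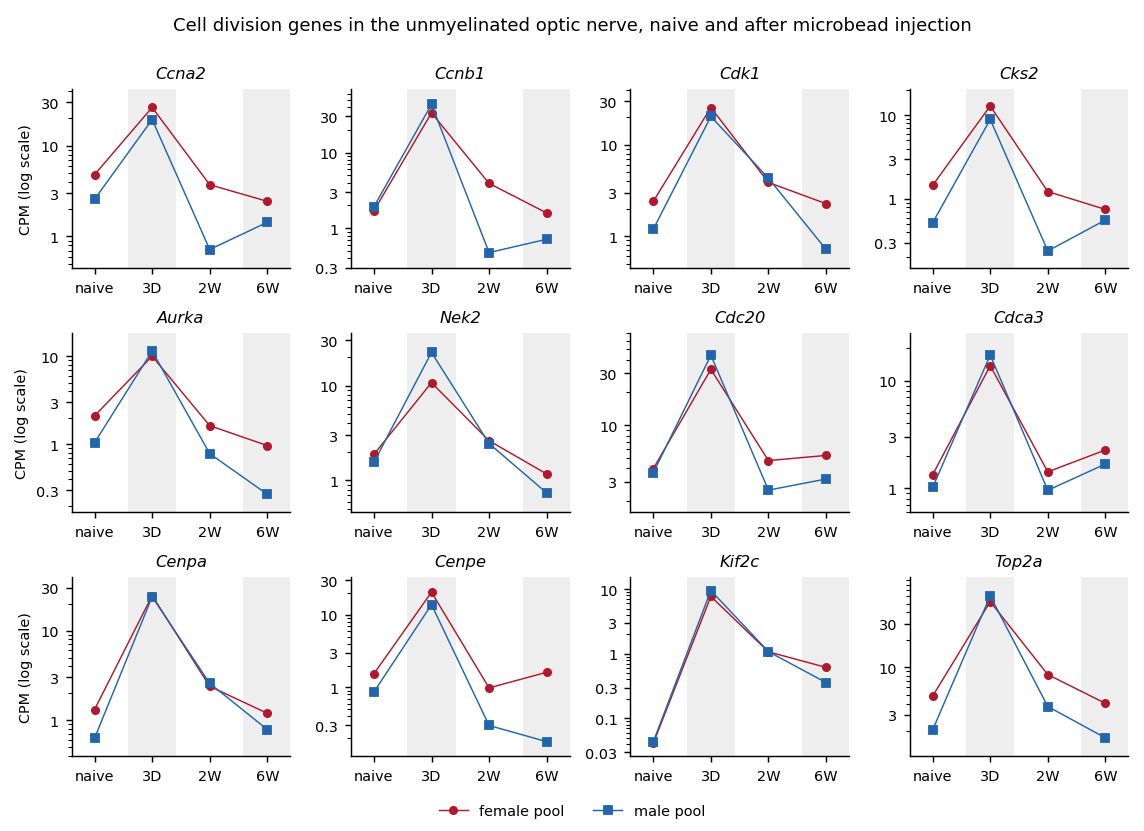
CPM (log axis) of 12 genes of cell division in each UON pool at naïve, 3D, 2W and 6W, with circles for female and squares for male pools. Lines join pools of 1 sex, which are different mice, and in each panel the 3D pools lie above both 6W pools (Top2a at 52.5 and 60.6 CPM against 4.02 and 1.68 CPM). All 12 were picked by a rule that required this order.

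Not every gene of the list had this pattern. Kif4, a chromokinesin, was at 36.8 and 62.2 CPM at 3D and 43.6 and 58.7 CPM at 6W. Espl1, which codes for separase, was at 7.18 and 11.3 CPM and 7.09 and 7.93 CPM, and Anln, a scaffold of the cleavage furrow that myelinating glia also use, at 69.4 and 35.9 CPM and 26.9 and 36.7 CPM. The pools of 3D and 6W overlapped for these 3 genes. The windows of all 3 also held TTTGAA. Pbk, Ube2c and Ccnb2 had log2 fold changes of -4.98, -4.78 and -4.58 with unadjusted edgeR p of 0.00478, 0.00751 and 0.00951, and DESeq2 did not call them. Each of these 3 was at 0 in the male 2W pool, the smallest of the 8 libraries.

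The summed level of the mitosis list was 769 and 881 CPM at 3D, 185 and 95.1 CPM at 2W, and 173 and 172 CPM at 6W. The naïve pools summed to 165 and 146 CPM. The 2W pools were thus already near the 6W pools, and the median log2 fold change was -3.38 for 2W against 3D and 0.15 for 6W against 2W. These contrasts share pools with 6W against 3D, and their values are given side by side only. For 2W against 3D, edgeR called 0 of 22438 genes (0%; 1073 at an unadjusted p under 0.05), while DESeq2 called 171 of 20461 lower (0.836%) and 43 higher (0.210%), 31 of the lower in the mitosis list. For 6W against 2W, edgeR called 0 (0%; 1220 at an unadjusted p under 0.05), while DESeq2 called 118 lower (0.577%) and 83 higher (0.406%), 1 of them in the mitosis list.

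Foxm1, a transcription factor that activates mitotic genes and was named after its values were seen, was at 8.69 and 13.6 CPM at 3D and 0.173 and 1.01 CPM at 6W, and DESeq2 called it with an adjusted p of 0.00201. The call was lost without the male 3D pool (0.101) and without the female 6W pool (0.0738), as was that of Mki67 (0.16 and 0.0851). Of the 107 genes that DESeq2 called lower and that passed the count filter, 25 were in the mitosis list, 4 in the DNA replication list and 72 in none of the 48 lists. These 2 lists do not hold every gene of cell division, and Nek2, Cdca3 and Foxm1 are called genes that lie outside both. The pools did not overlap for 106 of the 107, beside 19.4% lower without overlap among all genes tested. This largely follows from the call, which was made on the same pools.

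DNA replication genes differed less than mitosis genes. Of 32 genes, 26 had a negative log2 fold change, the median was -0.67, 5 were lower at an unadjusted edgeR p under 0.05 and DESeq2 called 4 lower. The 6W pools lay below both 3D pools for 19 and above both for 4, beside 19.4% and 16% of all genes tested. Of all genes tested, 2.87% were lower at that edgeR p. Rrm2, the regulated subunit of ribonucleotide reductase, was at 26.6 and 37.5 CPM at 3D and 3.6 and 3.58 CPM at 6W, a change of -3.19 ± 0.51. Tk1, thymidine kinase, was at 18.4 and 8.26 CPM and 1.54 and 0.627 CPM. Uhrf1, which guides maintenance methylation of new DNA, was at 17.5 and 9.53 CPM and 5.13 and 2.26 CPM, and Mcm5, of the replicative helicase, at 21.2 and 9.67 CPM and 6.02 and 3.58 CPM. Within each time the female pool was the higher for Tk1, Uhrf1 and Mcm5, and the groups did not overlap. With a library left out, DESeq2 kept the call of Rrm2 in 4 of 4 fits and that of Uhrf1 in none (adjusted p 0.0644 to 0.241), lost that of Tk1 without the female 3D pool (0.0539) and kept that of Mcm5 only without the male 3D pool. The list summed to 483 and 417 CPM at 3D and 331 and 303 CPM at 6W. The cell cycle inhibitor Cdkn1a, a p53 target, was at 85.8 and 97.7 CPM at 3D and 66.0 and 41.2 CPM at 6W, and the median of the 17 p53 targets was -0.11.

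Single genes of the astrocyte reaction were lower at 6W, while the medians of its lists were small. Timp1, an inhibitor of metalloproteinases (chrX:20870166-20874735), was at 153 and 106 CPM at 3D, 79.6 and 83.2 CPM at 2W and 29.0 and 37.5 CPM at 6W. The naïve pools were at 28.9 and 26.9 CPM. The change of 6W against 3D was -1.96 ± 0.28, with a DESeq2 adjusted p of 5.90e-06. Serpina3n, a secreted protease inhibitor, was at 2442 and 1303 CPM at 3D and 418 and 651 CPM at 6W, and Steap4, a metalloreductase, at 6.02 and 5.15 CPM and 0.615 and 1.61 CPM. DESeq2 called these 3 of the 13 genes of the PAN-reactive astrocyte list lower. That list had a median of -0.16, the A1 list -0.21 and the A2 list -0.35. Fkbp5, a co-chaperone induced by glucocorticoids, stood in the A1 and in the glucocorticoid list and was at 30.8 and 71.2 CPM at 3D and 10.6 and 14.0 CPM at 6W, below the naïve 50.4 and 52.1 CPM. Timp1 and Fkbp5 kept the DESeq2 call with each of the 4 libraries left out in turn. Serpina3n lost it without the female 3D pool (adjusted p 0.108) and without the female 6W pool (0.162), and Steap4 lost it in each of the 4 fits (0.0522 to 0.646). The other glucocorticoid-induced genes did not follow in both sexes, with medians over the list of -1.22 between the female and 0.05 between the male pools.

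Saa3, an acute-phase apolipoprotein, and Nfkbiz, a cofactor of NF-κB, were named after their values were seen, and DESeq2 called both lower, though with a library left out Saa3 lost the call without the male 3D pool (adjusted p 0.292) and Nfkbiz kept it only without the female 6W pool. Saa3 was at 4.76 and 22.2 CPM at 3D and 0.404 and 0.448 CPM at 6W, and Nfkbiz at 20.7 and 20.9 CPM and 8.98 and 5.42 CPM. Egr1, an immediate early transcription factor, was at 25.3 and 41.8 CPM at 3D and 10.03 and 10.13 CPM at 6W, with a DESeq2 adjusted p of 0.0588. In the list of 23 immediate early genes the median was -0.19, 3 genes (Egr1, Klf2 and Egr2) were lower at an unadjusted edgeR p under 0.05 and DESeq2 called none. Of the cytokines and chemokines, 25 were tested with a median of -0.36, and Ccl2, a monocyte attractant, was the only one at that p, at 7.42 and 9.93 CPM at 3D and 1.67 and 4.59 CPM at 6W.

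DESeq2 called 1 of the 14 homeostatic microglia genes lower, Fcrls, and none was called higher. Fcrls, a receptor of microglia, was at 97.9 and 59.3 CPM at 3D and 21.7 and 27.5 CPM at 6W, with a change of -1.64 ± 0.31 and a DESeq2 adjusted p of 0.00264. The naïve pools held 15.9 and 12.5 CPM. The call was lost without the female 3D pool (adjusted p 0.0919) and without the female 6W pool (0.265). Stab1, a scavenger receptor of perivascular macrophages, was named after its values were seen and was at 34.2 and 45.1 CPM at 3D and 14.4 and 10.8 CPM at 6W, and DESeq2 called it lower, though not without the male 3D pool or either 6W pool (adjusted p 0.0533 to 0.192). Of the 17 genes for Fc receptors and myeloid surface proteins, 16 had a negative log2 fold change. For 12 the pools lay lower at 6W without overlap, beside 19.4% of all genes tested. The median of the list was -0.68. It was -1.12 between the female and -0.15 between the male pools, and leaving out a library moved it between -0.86 and -0.31. Only Cd52 reached an unadjusted edgeR p under 0.05 in that list, and DESeq2 called none. The homeostatic microglia list had a median of -0.05, with Tmem119 at 108 and 114 CPM at 3D and 83.8 and 138 CPM at 6W. Between the female pools its median was -0.67 and between the male pools 0.40. Of the 20 genes of the activated and phagocytic microglia list, 15 had a negative log2 fold change and DESeq2 called none. The median was -0.29, with -0.49 between the female and 0.21 between the male pools. Its 3 genes lower at an unadjusted edgeR p under 0.05 were Spp1 (osteopontin), Cd68 and Lyz2 (lysozyme), beside 2.87% of all genes tested. Grn, the lysosomal protein progranulin, was lower at that p as well, at 433 and 433 CPM at 3D and 238 and 223 CPM at 6W.

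Of the interferon-stimulated genes, 21 of 22 had a negative log2 fold change, with a median of -0.61 over the list. The list summed to 3289 and 2714 CPM at 3D, 2026 and 2390 CPM at 6W and 5673 and 2431 CPM in the naïve pools. At 3D both pools lay above both naïve pools for 3 of the 22 genes. Without overlap, 14 of the 22 were lower at 6W, beside 19.4% of all genes tested. The median of the list was -0.95 between the female and -0.35 between the male pools, and leaving out a library moved it between -1.12 and -0.09. Irf7, the transcription factor that amplifies interferon output, was at 120 and 178 CPM at 3D and 31.1 and 59.0 CPM at 6W, with a DESeq2 adjusted p of 0.0533. Ifi27l2a, Usp18 and Ifi44 were the others at an unadjusted edgeR p under 0.05, and DESeq2 called none of the 22. Antigen presentation genes were split. Cd74, the invariant chain of MHC class II, was at 81.2 and 116 CPM at 3D and 186 and 191 CPM at 6W, a change of 0.95 ± 0.26, and H2-Aa at 30.2 and 31.0 CPM and 45.7 and 55.3 CPM. The MHC regulators Ciita and Nlrc5 stood the other way, Ciita at 5.19 and 3.50 CPM and 1.52 and 1.48 CPM. The median of the 16 genes was -0.17.

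DESeq2 called 18 genes higher at 6W beside 109 lower, a split that turned to 412 and 335 without the male 3D pool. Tesc, a calcium-binding regulator of sodium-proton exchange (chr5:118027743-118061878), was at 12.5 and 18.9 CPM at 3D, 26.6 and 29.9 CPM at 2W and 44.5 and 45.8 CPM at 6W, beside 38.3 and 36.02 CPM in the naïve pools. Its change was 1.54 ± 0.27 with a DESeq2 adjusted p of 0.0014. Cap2, a regulator of actin filaments, was at 23.4 and 28.0 CPM at 3D and 58.1 and 66.9 CPM at 6W, and Dapk2, a calmodulin-dependent kinase, at 30.4 and 38.4 CPM and 62.6 and 85.2 CPM. Both pools of 6W stood above both of 3D in these 3 genes, a condition of the rule that picked them. Cartpt, a secreted peptide (chr13:99898489-99901091), was at 1136 and 1813 CPM at 3D and 4383 and 6144 CPM at 6W, with 5524 and 3954 CPM in the naïve pools. Its change was 1.83 ± 0.44, with a DESeq2 adjusted p of 0.0112.

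Enzymes of lipid and amino acid metabolism were among the other named genes. Acsbg1, an acyl-CoA synthetase of astrocytes, was at 88.4 and 71.9 CPM at 3D and 192 and 355 CPM at 6W, and Acsl6, another acyl-CoA synthetase, at 50.9 and 76.5 CPM and 109 and 143 CPM. Pla2g7, which breaks down platelet-activating factor, was at 507 and 496 CPM and 986 and 1003 CPM, a log2 fold change of 0.99. Psat1, of serine synthesis, was at 60.5 and 105 CPM and 148 and 206 CPM. Acsbg1 was called by DESeq2, Pla2g7 had a change just under the threshold of 1, and Acsl6 and Psat1 had DESeq2 adjusted p of 0.0748 and 0.0588. Nr1d1, the clock repressor REV-ERBα, was at 53.5 and 185 CPM at 3D and 195 and 439 CPM at 6W, beside 376 and 515 CPM in the naïve pools and 391 and 553 CPM at 2W. All 7 named genes that DESeq2 called higher (Tesc, Cap2, Dapk2, Acsbg1, Tmem59l, Nr1d1 and Cartpt) lost that call without the male 6W pool, with DESeq2 adjusted p of 0.0987 (Tesc) to 0.541 (Dapk2). Acsbg1 alone kept it without each of the other 3 libraries.

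**Figure D2:**
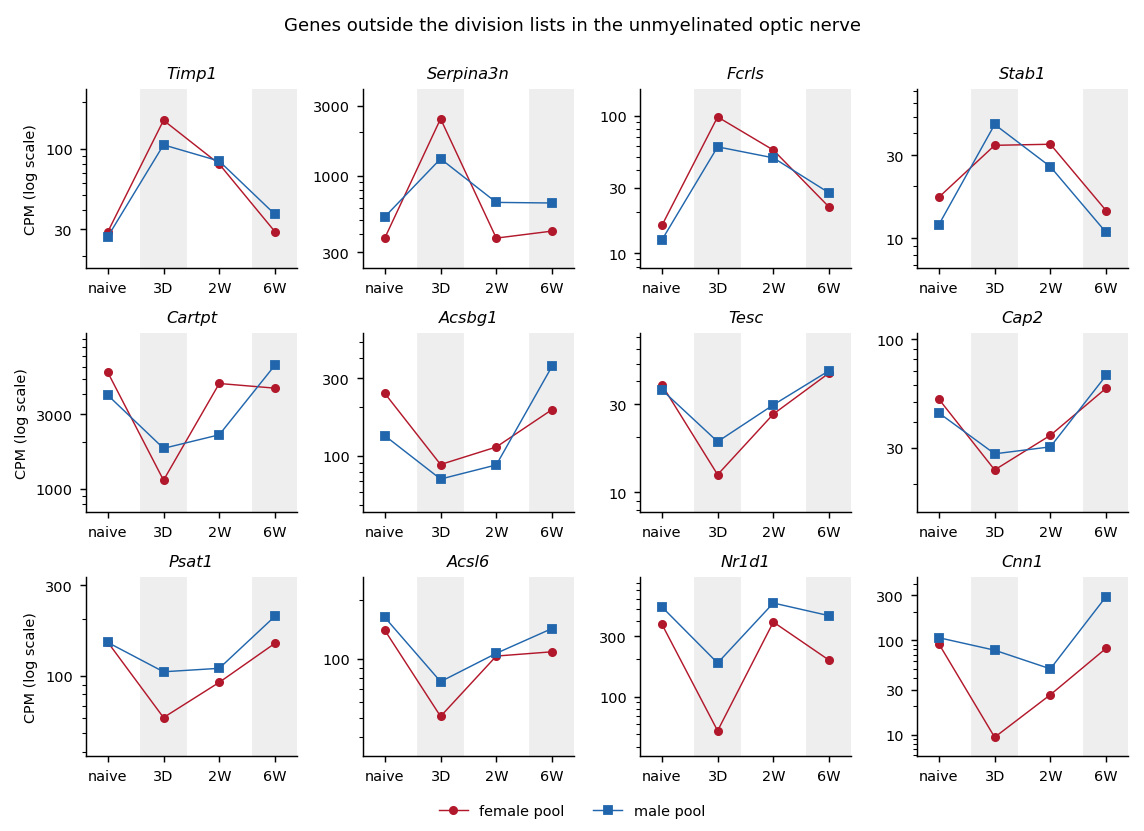
CPM (log axis) of 12 further genes in each UON pool at naïve, 3D, 2W and 6W, drawn as for the genes of cell division. Timp1, Serpina3n and Fcrls lie highest at 3D, while Tesc, Cap2 and Cartpt (1136 and 1813 CPM at 3D, 4383 and 6144 CPM at 6W) lie lowest there.

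The homeostatic astrocyte list had a median of 0.26, with 7 of 18 genes higher at 6W without overlap and 1 lower, beside 16% and 19.4% of all genes tested. The list summed to 14380 and 17320 CPM at 3D and 24110 and 24170 CPM at 6W. Sox9, the astrocyte transcription factor, was at 351 and 693 CPM at 3D and 696 and 990 CPM at 6W. Cartpt was the only member that DESeq2 called. Its own values, 1136 and 1813 CPM at 3D and 4383 and 6144 CPM at 6W, make up a large part of the rise in the list's sum. Glycolysis and hypoxia genes had a median of 0.38, with 14 of 25 higher without overlap and 6 higher at an unadjusted edgeR p under 0.05. Over all genes tested these shares were 16% and 1.66%. DESeq2 called none of the 25. Vegfa, the vascular growth factor, was at 24.4 and 31.6 CPM at 3D and 39.2 and 51.6 CPM at 6W, and Aldoa, a glycolytic aldolase, at 1188 and 1161 CPM and 1620 and 1994 CPM. Pfkl, Pfkm, Slc16a1 and Tpi1 were the other members at that p. Tgfb3, a transforming growth factor β, was at 123 and 211 CPM at 3D and 299 and 447 CPM at 6W, while Ltbp3, a protein that holds the factor in the matrix, was at 140 and 144 CPM and 77.9 and 74.3 CPM.

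Extracellular matrix genes depended on the pool. Of 28 collagen chains, 24 had a negative log2 fold change and the median was -0.52, but it was 0.30 between the female and -1.10 between the male pools. The fibroblast markers differed in the same way and further, with a median of 0.73 between the female and -2.13 between the male pools. Their summed level was 14430 and 31250 CPM at 3D and 36880 and 3810 CPM at 6W, with Col1a1 at 134 and 336 CPM and 275 and 68.5 CPM. The part of this in the matrix values was not tested. Eln (elastin) was lower in both sexes, at 77.8 and 72.1 CPM at 3D and 33.9 and 30.1 CPM at 6W, as was the cartilage collagen gene Col2a1, at 14.0 and 20.2 CPM and 7.19 and 3.43 CPM. Bmp1, the procollagen C-proteinase, was named after its values were seen and was at 103 and 159 CPM at 3D and 38.5 and 55.6 CPM at 6W, below the naïve 98.5 and 103 CPM. DESeq2 called it lower, though not without the female 6W pool (adjusted p 0.238).

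**Figure D3:**
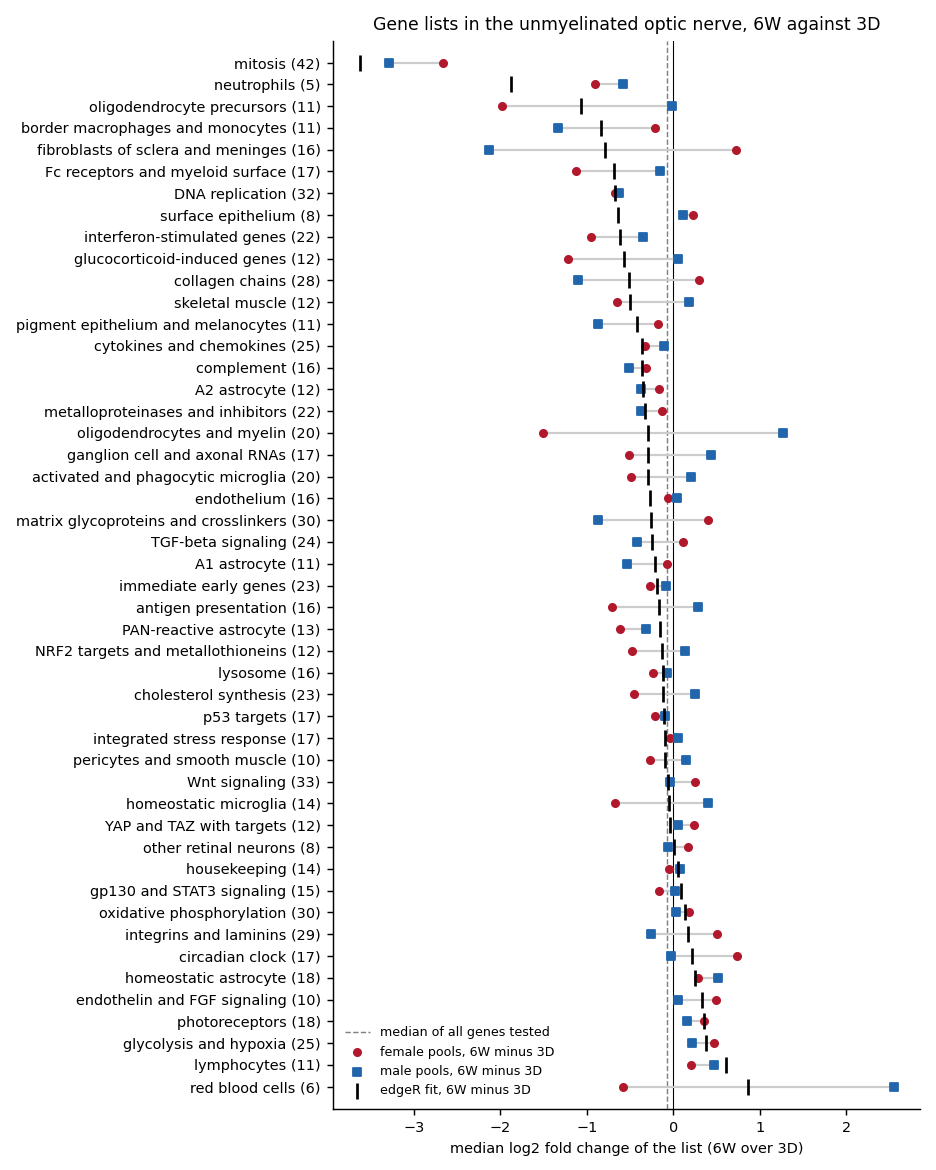
Log2 fold change of 6W against 3D for 48 gene lists: the black tick is the median over a list's genes from edgeR, and the coloured points are the medians of the female (red) and the male (blue) pool difference, with a dashed line at the median of all genes. The mitosis list (-3.62) lies at the far left with both sexes on its side, while the fibroblast list has the sexes on opposite sides.

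Markers of other cells differed between the pools of one time as much as between times. Oligodendrocyte and myelin genes summed to 43080 and 18020 CPM at 3D and 15590 and 35800 CPM at 6W, and their median was -1.50 between the female and 1.27 between the male pools. Oligodendrocyte precursor genes summed to 1161 and 426 CPM at 3D and 383 and 427 CPM at 6W, so that the female 3D pool was the high one. Red blood cell genes summed to 2395 CPM in the male 6W pool and to between 406 and 646 CPM in the other 3, and surface epithelium genes to 5.91 CPM in that pool and to between 25.1 and 149 CPM in the other 3. Photoreceptor genes summed to between 58.6 and 191 CPM, and neutrophil genes to between 9.63 and 29.2 CPM. The 17 genes for Fc receptors and myeloid surface proteins summed to 768 and 643 CPM at 3D and 350 and 581 CPM at 6W. The part of these markers in the mitosis values was not tested.

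**Figure D4:**
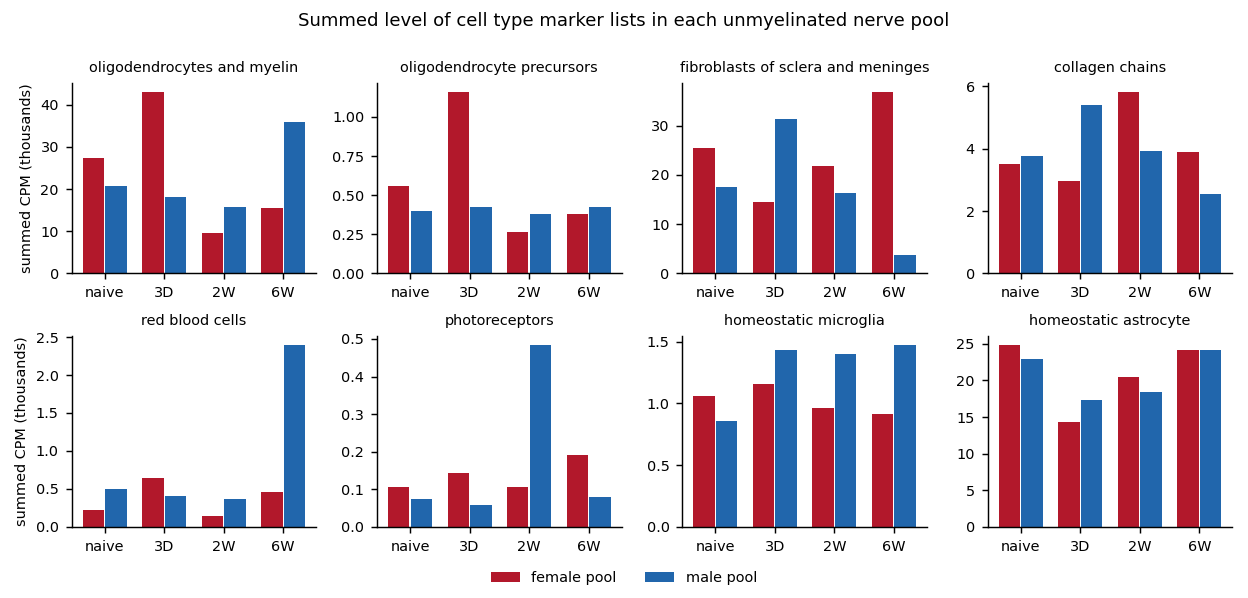
Summed CPM (bars from 0, scale as labelled) of marker lists in each UON pool. Oligodendrocyte genes are highest in the female 3D pool and the male 6W pool, and fibroblast genes are lowest in the male 6W pool (3810 CPM).

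Cnn1 and Tagln, 2 contractile proteins of smooth muscle and pericytes, were higher at 6W. Cnn1 was at 9.36 and 78.5 CPM at 3D and 82.3 and 291 CPM at 6W and was called by DESeq2, though not without the female 3D (adjusted p 0.0661) or the male 6W pool (0.177), and Tagln was at 229 and 247 CPM and 348 and 827 CPM. The pericyte and smooth muscle list as a whole had a median of -0.09 over 10 genes and summed to 436 and 547 CPM at 3D and 669 and 1312 CPM at 6W. RNAs typical of ganglion cells and their axons had a median of -0.29, and none of the 17 reached an unadjusted edgeR p under 0.05.

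Whether the difference between times was particular to the UON was asked with the same contrast in the MON and the retina, as an interaction in 1 model per pair of tissues, in which fitted values shift slightly. Between UON and MON no gene was called by edgeR (0 of 25807, 0%), with 441 genes more negative in the UON (1.71%) and 432 more positive (1.67%) at an unadjusted p under 0.05. DESeq2 called 30 of 28423 genes more negative in the UON (0.106%) and 20 more positive (0.0704%). The median of the mitosis list was -3.57 in the UON and -1.91 in the MON, and 7 of the 42 genes were more negative in the UON at an unadjusted edgeR p under 0.05, while DESeq2 called none. In the MON, Top2a was at 52.0 CPM in the female and 5.83 CPM in the male 3D pool and at 8.09 and 2.67 CPM at 6W, and Mki67 was at 38.1 and 5.81 CPM and 8.61 and 0.968 CPM. There the male 3D pool was lower than the female 6W pool, whereas in the UON both 3D pools were high. For Top2a the difference in log2 fold change was -2.38 ± 0.996, with an edgeR adjusted p of 1. With the mouse pool as a replicate block, a fit added after seeing the data, 6 of the 42 were more negative in the UON at that p and DESeq2 again called none, of 48 genes called more negative (0.121%) and 44 more positive (0.111%).

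Between UON and retina edgeR called 1 of 26731 genes (0.00374%), a mitochondrial ribosomal RNA whose counts are dealt with apart. At an unadjusted p under 0.05, 1239 genes were more negative in the UON (4.64%) and 881 more positive (3.30%). DESeq2 called 177 of 22198 genes more negative in the UON (0.797%) and 52 more positive (0.234%). The mitosis list had a median of -3.6 in the UON and 0.18 in the retina, and 24 of its 42 genes were more negative in the UON at an unadjusted edgeR p under 0.05. DESeq2 called 14 of the 42, all more negative in the UON, among them Cenpa, Cenpe, Ccna2 and Aurka. Cenpa was at 5.004 and 2.17 CPM in the 3D retina and 5.72 and 4.05 CPM at 6W, and the difference of -5.12 ± 0.68 had an adjusted p of 0.208 by edgeR and 5.48e-10 by DESeq2. With the mouse pool as a block these were 0.956 and 2.89e-06, edgeR called no gene, and DESeq2 called 78 of 19595 genes more negative (0.398%), 10 of them in the mitosis list, and 36 more positive (0.184%). Top2a was at 0.729 CPM or less in all 4 retinal pools, so its fold change there has little behind it.

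**Figure D5:**
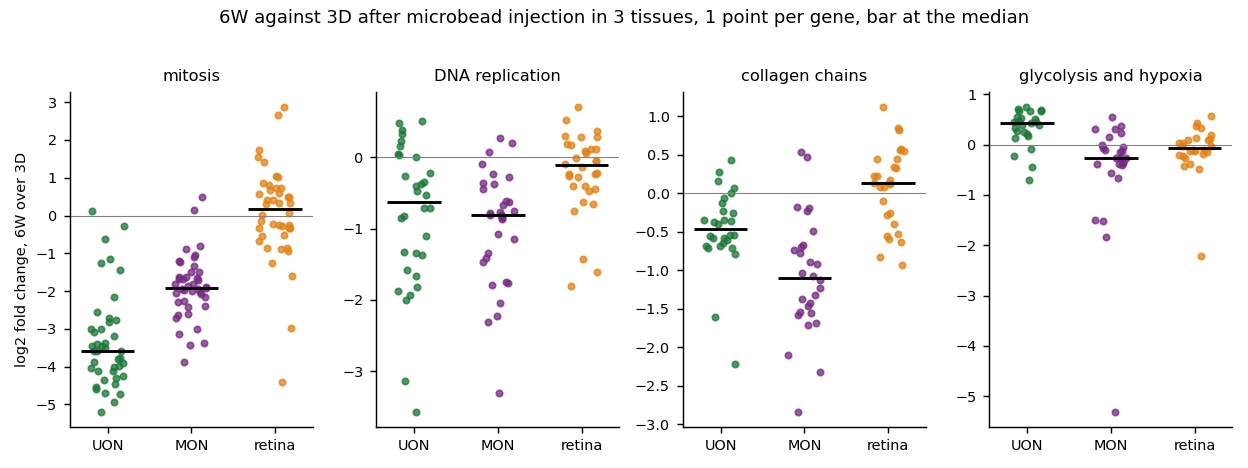
Log2 fold change of 6W against 3D for each gene of 4 lists in UON, MON and retina, with a bar at each median. The mitosis genes lie lowest in the UON (median -3.6 beside the retina at 0.18), and the glycolysis median lies above 0 in the UON.

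Genes of antigen presentation differed between UON and MON by DESeq2 and not by edgeR, with 3 of 16 (Cd74, H2-Ab1 and H2-Aa) called more positive in the UON. Cd74 was at 127 and 150 CPM in the 3D MON and 51.7 and 47.1 CPM at 6W, opposite to its order in the UON, and the difference of 2.50 ± 0.36 had an adjusted p of 0.408 by edgeR and 2.21e-06 by DESeq2. H2-Ab1, the class II β chain, differed by 1.99 ± 0.30, with an adjusted p of 0.408 by edgeR and 1.32e-05 by DESeq2. With the mouse pool as a block DESeq2 called the same 3 genes, and edgeR's adjusted p was 0.189 for Cd74. The glycolysis and hypoxia list had medians of 0.44 in the UON and -0.27 in the MON. At an unadjusted edgeR p under 0.05, 8 of its 26 genes were more positive in the UON, among them Adm, Pgk1 and Ldha, beside 1.67% of all genes tested. Cartpt differed by 2.76 ± 0.58 from the MON, where it was at 7.47 to 23.6 CPM, with a DESeq2 adjusted p of 0.00273. DESeq2 called none of the glycolysis and hypoxia genes in this comparison.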

How the data were processed

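Per the study's methods and the submitters' processing notes, the authors dissected the tissues, extracted RNA with TRIzol, made libraries with an ultra-low-input kit, sequenced paired 150-base reads, checked them with FastQC, aligned them with HISAT2 2.2.1 to GRCm38 and assembled them with StringTie 1.3.0. The deposited estimated counts per gene come from StringTie's coverage, rounded to whole numbers, and the authors' FPKM values per gene come from the same tool. A few deposited FPKM values just below 0 were set to 0.

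Groups were taken from the labels. The 8 UON libraries (naïve, 3D, 2W and 6W) were fitted with time and sex in edgeR 4.0.16 (R 4.3.3) by glmQLFit and glmQLFTest, after TMM scaling and filterByExpr (minimum count 10, minimum total 15). Residual degrees of freedom were 3. Interactions with MON and retina used 16 libraries. DESeq2 1.42.0, limma 3.58.1 (voom, and log2(FPKM + 1)), other scalings and filters, and leaving out each library were alternatives. On simulated data, edgeR was tried first for the UON and for UON against MON, and DESeq2 and voom for the UON only. The edgeR fits with a replicate block were also tried on simulated data. The DESeq2 fits across tissues, limma on FPKM and the edgeR fit of UON and retina without a block were not. Differences of single pools used log2(CPM + 0.5). Non-overlap means that both pools of one time lie on one side of both of the other. Per the study's methods, each mouse gave all 3 tissues, so the UON, MON and retina pools of 1 time and sex share their mice, while pools of different times do not, and p-values measure the spread between pools. The fits across tissues as reported do not use this pairing, and fits with the mouse pool as a replicate block (3 residual degrees of freedom) were added after seeing the data. Within a time, the female minus male differences of paired tissues correlated over genes between -0.04 and 0.10. Named genes are up to 15 in each direction by edgeR's smallest unadjusted p (none was called), with a named symbol, a mean of at least 5 CPM at the higher time and no overlap of pools, plus up to 4 members of each list by p and 3 first markers of each cell type. The lists, their members and the rule were chosen with earlier results of these data known. Promoter letters come from RefSeq and GRCm38.p6.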

Additional observations from a re-analysis of the deposited data

Results flagged for a closer look

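The gene mt-Rnr1, a mitochondrial ribosomal RNA, was picked out because its change from 3D to 6W differed between UON and retina, by -14.39 on the log2 scale, with an edgeR adjusted p of 0.00109 over 26731 genes (0.298 with the mouse pool as a replicate block). In the UON it held 2616 counts in the female 3D pool and 0 in each of the other 7 libraries of the fit. In these libraries Gm28661, a gene annotated on chromosome 1, was at 0 or at 55827 to 97201 counts. The mitochondrial gene mt-Atp6 was at 0 in the male 2W and female 6W pools and at 129420 to 288093 counts in the others. Mitochondrial genes of these libraries therefore switched between 0 and high counts from library to library, and the value is not a level of RNA at 3D or 6W.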

How the results depend on the processing

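The count of called genes depended on the test, while none of the 15 genes named in each direction by smallest p reversed its direction. Those genes were picked by p and by non-overlap in these same pools, so the kept direction is not independent support. For 6W against 3D, edgeR called 0 lower and 0 higher as reported and under limma-voom, other scalings, a minimum count of 50, no sex term and FPKM values. The exceptions were DESeq2 with 109 lower and 18 higher, no filter on low counts with 24 and 2, all 12 UON libraries with 1 lower, and leaving out a library, with 0 to 6 lower and 0 to 6 higher (6 and 6 without the male 3D pool). DESeq2 itself called 131 to 335 lower and 12 to 412 higher with a library left out (335 and 412 without the male 3D pool), and 29 higher without the male 2W pool, an alternative chosen after seeing the data. Of its calls, 23 lower, 14 of them in the mitosis list, and 2 higher were kept in 4 of 4 such fits. For 2W against 3D, DESeq2 called 171 and 43, no filter gave 21 and 3, and leaving out a library 0 to 39 lower and 0 to 14 higher. For 6W against 2W these were 118 and 83, 3 and 8, and 0 to 1 higher. Between UON and MON, DESeq2 called 30 more negative and 20 more positive, no filter gave 1 and 4, and leaving out a library 0 to 1 and 0 to 7. Between UON and retina these were 177 and 52, 9 and 3, and 0 to 33 and 0 to 18, and the 1 call became 0 without the sex term. DESeq2 was not repeated with a library left out for the differences between tissues. The cause of these moves was not tested.

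The mitosis median kept its sign in 17 of 17 alternatives (-4.15 to -1.98), as did those of the DNA replication, Fc receptor, interferon, glycolysis and astrocyte lists. The medians of the collagen (-0.92 to 0.26), fibroblast (-1.75 to 0.58) and oligodendrocyte lists (-1.25 to 1.05) kept it in 15 of 17. Scaling by library totals alone moved the median of all genes from -0.07 to -0.18. No paired analysis was possible for 6W against 3D within the UON because the labels give the pools no shared replicate numbers, and pools of 1 sex at 2 times are different mice. Between tissues the mouse pool was used as a replicate block, chosen after seeing the data. Between UON and MON edgeR then called 1 gene more negative and 0 more positive, and DESeq2 48 and 44. The edgeR call was Gm28661, a gene annotated on chromosome 1 that also switched between 0 and high counts. Between UON and retina edgeR called 0 and 0, against 1 and 0 as reported, and DESeq2 78 and 36. With 2 pools a time, a female 3D library of 19513875 counts and a male 2W library of 16158723, genes of a few CPM are the least certain.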

Other observations

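A few genes were at 0 in both 6W pools. Otoa, which codes for otoancorin, held 112 and 482 counts at 3D and none at 6W. Kifc1, a motor of the mitotic spindle, held 30 and 57 counts at 3D, and Ticrr, which acts in the initiation of DNA replication, 53 and 92 counts. No fold is given, since several deposited counts make up 1 read pair. All 3 were named after their values were seen.

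Genes below both their 3D and naïve levels at 6W were called by DESeq2 as well. Adgra2, a receptor of vascular Wnt7 signalling, was at 35.4 and 54.0 CPM at 3D, 6.82 and 18.9 CPM at 6W and 26.1 and 30.7 CPM in the naïve pools. Grb2, an adaptor of receptor kinases, was at 38.8 and 50.3 CPM, 17.9 and 20.5 CPM and 49.8 and 64.3 CPM, and Lrig1, an inhibitor of ErbB receptors, at 51.8 and 73.6 CPM, 21.8 and 20.2 CPM and 52.7 and 93.6 CPM. In each the 6W pools were the lowest of the glaucoma pools. With a library left out, Adgra2 lost the call without the female 6W pool (DESeq2 adjusted p 0.123), Grb2 kept it only without the male 3D pool and Lrig1 only without the female 3D pool. These genes were named after their values were seen.

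Among the lists not described in the report, the neutrophil list had a median of -1.87 over the 5 of its 11 genes that were tested, border macrophages and monocytes -0.84 over 11 genes, skeletal muscle -0.50 over 12, pigment epithelium and melanocytes -0.42 over 11, lymphocytes 0.61 over 11, and endothelin and FGF signaling 0.34 over 10. DESeq2 called no gene of these 6 lists. The medians were 0.14 for oxidative phosphorylation, -0.12 for cholesterol synthesis, -0.06 for Wnt signaling and -0.04 for YAP and TAZ with their targets. None of the cholesterol synthesis or oxidative phosphorylation genes reached an unadjusted edgeR p under 0.05, and DESeq2 called none.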
